A study of Mus musculus with 6 samples.

Results

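MHC class II genes were measured in stem cell-enriched bone marrow of mice without 2 NR4A nuclear receptors. They were followed through 10 genes: the classical chains H2-Aa, H2-Ab1 and H2-Eb1, the invariant chain Cd74, the peptide editor chains H2-DMa, H2-DMb1 and H2-DMb2, the editor's inhibitor chains H2-Oa and H2-Ob, and the transactivator Ciita. Members were the probe sets that the platform annotation gives to 1 of these symbols alone, which were 19 of 34945 probe sets with 1 symbol, and they covered 9 of the 10 genes. H2-DMb1 had no probe set of its own. The genes were taken up with their difference between DKO and WT already known, so that difference is given here as a description, with no p-value. How many members passed the threshold of the fit over all probe sets is printed beside the share of all probe sets that did, and nothing is read from it.

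The arrays were hybridised with RNA of sorted bone marrow cells that lacked lineage markers and carried Sca1. The DKO mice were Nr4a1 Nr4a3 double knockouts on a C57BL/6 and 129SvJ hybrid background, bred from both single-knockout lines. The WT mice carried both genes, and the labels give no strain for them, so genotype and strain cannot be told apart. All mice were 2 to 3 weeks old, each of the 3 arrays per group held a pool of 10 to 20 mice, so the spread given here is between pools of mice.

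Class II molecules carry peptides of endocytosed proteins to the cell surface, where CD4 T cells read them. New alpha and beta chains pair in the endoplasmic reticulum with the invariant chain, which blocks their groove and sends them to endosomes. There H2-M, made of the DM chains, trades the last piece of the invariant chain for peptides, and H2-O, made of Oa and Ob, restrains H2-M, mainly in B cells. Ciita, itself without DNA binding, assembles on RFX, CREB and NF-Y factors at the X and Y boxes of class II promoters. Dendritic cells, B cells and macrophages are the usual bearers of these molecules.

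The promoter windows of 4 members are shown because, among the 7 members with a window here, they cover each direction: H2-Aa and H2-Eb1 were higher in DKO cells, H2-Ob was lower, and H2-Oa overlapped between the groups. H2-Ab1, Cd74 and Ciita are not shown. Each is a RefSeq window of GRCm38.p6, from 250 bases before the start of the gene to 50 after it, written 5′ to 3′ on the strand of the gene. Capitals mark the letters CCAAT (core of the Y box), AGNNACNGA (core of the X box) and AAAGGTCA (the response element of NR4A receptors), searched on both strands.
H2-Aa, chr17:34287774-34288073, minus strand: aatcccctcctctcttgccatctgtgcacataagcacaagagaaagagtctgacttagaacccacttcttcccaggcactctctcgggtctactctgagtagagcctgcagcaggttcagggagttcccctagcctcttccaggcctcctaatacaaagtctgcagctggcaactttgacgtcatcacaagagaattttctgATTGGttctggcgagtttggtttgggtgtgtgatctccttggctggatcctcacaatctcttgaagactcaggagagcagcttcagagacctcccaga
H2-Eb1, chr17:34305617-34305916, plus strand: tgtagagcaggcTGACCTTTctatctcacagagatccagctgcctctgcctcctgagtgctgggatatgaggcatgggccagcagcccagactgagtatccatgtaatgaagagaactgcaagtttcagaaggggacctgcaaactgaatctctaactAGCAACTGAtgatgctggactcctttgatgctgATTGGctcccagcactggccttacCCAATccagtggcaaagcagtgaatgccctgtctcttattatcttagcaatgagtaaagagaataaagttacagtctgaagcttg
H2-Ob, chr17:34238655-34238954, plus strand: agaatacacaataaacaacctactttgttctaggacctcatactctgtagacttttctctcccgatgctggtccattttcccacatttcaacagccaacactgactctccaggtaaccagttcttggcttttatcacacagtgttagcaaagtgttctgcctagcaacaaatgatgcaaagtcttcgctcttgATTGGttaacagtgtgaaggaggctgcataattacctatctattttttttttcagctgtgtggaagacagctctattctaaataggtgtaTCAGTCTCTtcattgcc
H2-Oa, chr17:34092129-34092428, plus strand: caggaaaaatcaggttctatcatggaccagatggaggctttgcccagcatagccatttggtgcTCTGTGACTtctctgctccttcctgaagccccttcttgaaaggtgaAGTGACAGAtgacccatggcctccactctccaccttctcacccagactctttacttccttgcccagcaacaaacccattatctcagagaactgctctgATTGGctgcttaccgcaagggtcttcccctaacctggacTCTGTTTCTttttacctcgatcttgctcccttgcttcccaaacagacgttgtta

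The Y box core was in 7 of 8 windows of 7 members, and in 37.4% of all 32851 windows of this length. It began 48 bases before the start in H2-Aa, 59 and 35 bases before it in H2-Eb1, 57 in H2-Ob and 43 in H2-Oa. The X box core was in 4 of the 8 windows and in 17.7% of all. In H2-Eb1 it began 92 bases before the start, upstream of the Y box letters. The match marked in H2-Ob began 33 bases after the start, downstream of the Y box letters. Only exact matches were searched, so an unmarked stretch can still be close to these letters. The letters of the NR4A element were in 1 of the 8 windows, that of H2-Eb1, 238 bases before the start, and in 1.51% of all windows. No 2 matches overlapped in these windows. Genes higher and genes lower in DKO cells both held the Y box letters, and a match is a run of letters, not a site.

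Signals are MAS5 values, a linear brightness per probe set that the authors had scaled to a common trimmed mean of 500, and array medians lay between 91.6 and 122.5. Differences are DKO minus WT on the log2(signal + 16) scale with their standard error from limma, which understates changes of dim genes. A probe set was called at an adjusted p under 0.05 over all 27023 fitted. Nr4a1, the deleted receptor gene, read 8.0, 22.4 and 33.8 in DKO cells, against 1111, 1269 and 816.3 in WT cells. Nr4a3, the other deleted gene, had 3 probe sets, all too dim to be fitted. Of 10 fitted stem cell genes 6 fell and 4 were not called. Mecom, a stem cell factor, lay between 1194 and 1654 in DKO cells and between 3418 and 5313 in WT cells. WT replicate 2 stood apart from the other WT arrays by its summed B lineage, neutrophil and erythroid signals, and results that rest on it are given with and without it. In pooled cells, more cells of a type and more RNA per cell cannot be told apart.

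The classical chains were 4.75- to 7.77-fold higher in DKO cells than in WT cells, as fold changes of signal + 16, the DM chains differed less, and H2-Ob went the other way. H2-Aa, the alpha chain of I-A, read 3005, 3081 and 2487 in DKO cells, against 270.5, 747.6 and 212.4 in WT cells. The lowest DKO array was above the highest WT array, and among WT arrays replicate 2 was the highest. Its difference was 2.96 ± 0.39 (SE, n = 3 each), or 7.77-fold, and 3.48 without WT replicate 2.

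H2-Ab1 encodes the beta chain that pairs with the H2-Aa product. It read 1544, 2228 and 2306 in DKO cells, against 366.0, 317.7 and 288.3 in WT cells. The WT arrays lay close together here, and replicate 2 did not stand out. The difference was 2.57 ± 0.26, or 5.94-fold, and 2.56 without WT replicate 2.

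H2-Eb1, the beta chain of I-E, read 1185, 1220 and 1034 in DKO cells, against 243.0, 375.0 and 127.7 in WT cells. The groups did not overlap, and WT replicate 2 was again the highest of its group. The difference was 2.25 ± 0.37, or 4.75-fold, and 2.59 without WT replicate 2. The partner of this chain comes from H2-Ea, which carries a deletion in C57BL/6 mice that stops its transcription. Its probe set was too dim to be fitted, at 1.7, 41.2 and 10.8 in DKO cells, against 80.3, 90.2 and 48.9 in WT cells. H2-Ea was named after its values were seen.

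Cd74, the invariant chain that guards the groove, read 1161, 1844 and 1675 in DKO cells, against 90.8, 722.4 and 165.0 in WT cells. The groups did not overlap, but the WT arrays were spread more widely than for the classical chains, with replicate 2 far above the other 2. The difference was 2.67 ± 0.56, or 6.38-fold. Without WT replicate 2 it was 3.48, so that array lowers it.

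**Figure D1:**
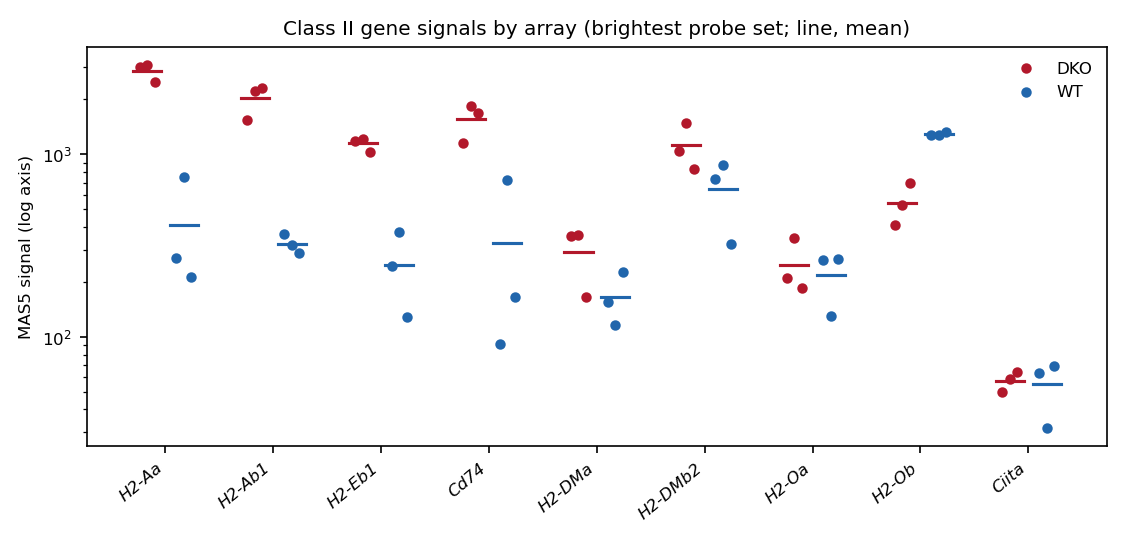
MAS5 signal (log axis) of the brightest probe set of 9 class II genes, with a point for each array and a line at the group mean, DKO in red left of WT in blue. All 3 DKO points lie above all 3 WT points for H2-Aa, H2-Ab1, H2-Eb1 and Cd74, and below them for H2-Ob.

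The peptide editor chains had differences below 1 log2 unit with all arrays. H2-DMa read 355.6, 360.0 and 164.6 in DKO cells, against 154.7, 115.4 and 225.2 in WT cells. DKO replicate 3 lay below WT replicate 3, so the groups overlapped, and the difference was 0.74 ± 0.43. Leaving out WT replicate 2 gave 0.53, and leaving out DKO replicate 3 gave 1.09. H2-DMb2 read 1038, 1486 and 829.7 in DKO cells, against 734.5, 868.9 and 324.5 in WT cells. These groups overlapped too, as DKO replicate 3 lay below WT replicate 2, and the difference was 0.86 ± 0.37. It was 1.12 without WT replicate 2 and 0.44 without WT replicate 3. Another probe set of H2-DMa and 2 further ones of H2-DMb2 gave 0.86, 0.72 and 0.70. The groups did not overlap in that of H2-DMa, at 78.8 to 137.6 in DKO cells, against 32.7 to 66.6 in WT cells. Nor did they overlap in the H2-DMb2 probe set at 0.72, at 304.3 to 516.5 in DKO cells, against 171.9 to 281.8 in WT cells. In the one at 0.70 they overlapped. Of a pair of probe sets annotated to H2-DMb1 and H2-DMb2 together, which stand outside the rule, the values were 1.27 ± 0.54 and 0.07 ± 0.49.

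H2-O chains, which restrain the editor, differed from each other. H2-Ob, the beta chain, read 407.4, 526.1 and 694.4 in DKO cells, against 1277, 1281 and 1331 in WT cells. Every DKO array was below every WT array, and the WT arrays were almost level. The difference was -1.26 ± 0.26, or 0.416 times the WT value of signal + 16. A probe set annotated to H2-Ob and Gm20506 together, outside the rule, read 108.3, 98.3 and 74.7 in DKO cells, against 255.0, 210.9 and 218.8 in WT cells, and its difference was -1.16 ± 0.39. H2-Oa, the alpha chain, read 210.5, 349.9 and 185.6 in DKO cells, against 263.3, 129.4 and 265.9 in WT cells. The groups overlapped, and the difference of 0.18 ± 0.42 became -0.13 without WT replicate 2 and -0.08 without DKO replicate 2. Within arrays, the log2 level of H2-Oa minus that of H2-Ob, each relative to its own mean, was 0.92, 1.25 and 0.00 in DKO cells, against -0.39, -1.34 and -0.44 in WT cells.

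Ciita, the transactivator of this gene family, was dim on every array. Its brightest probe set read 49.9, 58.4 and 63.8 in DKO cells, against 63.5, 31.7 and 69.3 in WT cells, and the groups overlapped (0.09 ± 0.46, and -0.17 without WT replicate 2). Another, too dim to be fitted, read 48.3, 36.6 and 44.8 in DKO cells, against 8.4, 11.0 and 4.8 in WT cells. The groups did not overlap there, and the difference of 1.30 was 2.34 with an offset of 1 and 0.57 with one of 64. The third read 29.6, 7.6 and 1.6 in DKO cells, against 8.4, 6.2 and 20.5 in WT cells. The 3 probe sets of Ciita thus did not give a common direction.

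Probe sets of the same classical gene differed in size, not in direction. Besides the brightest, H2-Aa had probe sets at 2.57 ± 0.45 and 1.64 ± 0.45 and a dim, unfitted probe set at 0.71. H2-Ab1 had 2 more, at 1.90 ± 0.53 and 1.47 ± 0.51. By the suffix of their name, several probe sets of both genes hold probes that can bind related transcripts. The brightest of H2-Aa and the brightest of H2-Ab1 are among them. In all, the 7 fitted probe sets of the classical chains lay between 1.47 and 2.96, and in each of them the groups did not overlap. The filter takes the mean of all arrays, so a probe set bright in DKO cells alone can pass it. The H2-Ab1 probe set at 1.47 read 25.7, 62.6 and 32.6 in WT cells. In the unfitted probe set of H2-Aa the groups overlapped, at 15.7 to 37 in DKO cells, against 1.2 to 24.3 in WT cells.

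**Figure D2:**
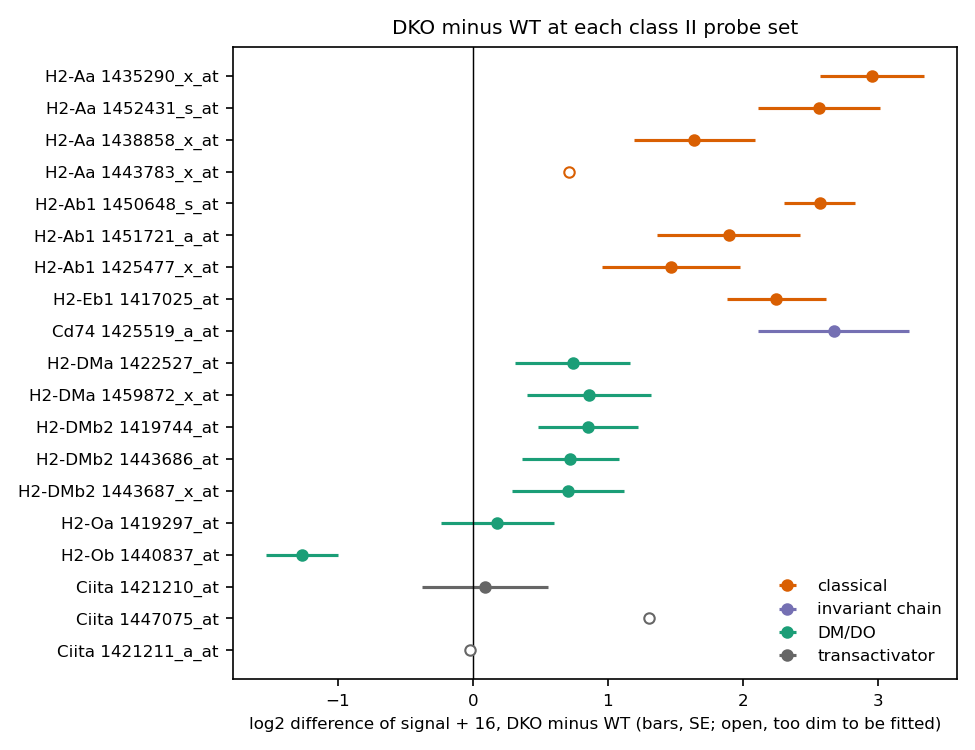
Log2 difference (signal + 16), DKO minus WT, for each of the 19 probe sets on its own row, coloured by role, with SE as bars. Open circles were too dim to be fitted and have no SE. The classical and invariant chains lie between 0.71 and 2.96, the DM and H2-Oa probe sets between 0.18 and 0.86, and H2-Ob lies at -1.26.

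Of the 19 probe sets 16 were bright enough to be fitted, and of these 6 were called, 5 higher and 1 lower, where 1.37% of all fitted probe sets were called (0.807% higher and 0.562% lower). They were 2 of H2-Aa and 1 each of H2-Ab1, H2-Eb1, Cd74 and H2-Ob. The members were chosen on this contrast, so nothing is read from that count. Groups did not overlap in 10 fitted probe sets higher in DKO cells and in 1 lower, against 8.76% and 11.1% of all (19.8% in either direction). By gene, 4 were called higher and 1 lower of 9, where 1.08% and 0.633% of 11529 fitted genes were (1.71% in all). The median difference of the 16 probe sets was 1.16, and that of all fitted probe sets was -0.05. With an array left out, the difference at the brightest probe set was 2.61 to 3.48 for H2-Aa and 2.47 to 2.75 for H2-Ab1. The call of H2-Eb1 ended without any 1 of the DKO arrays, and that of the other H2-Aa probe set without any of them or without WT replicate 1. The Cd74 call stood only without WT replicate 2 among these cases, with differences of 2.08 to 3.48. The H2-Ob call ended in all 6 cases, with differences of -1.45 to -1.08. In the 10 other alternative runs by probe set it stood in 4, and it ended with quantile normalization and with median centring.

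Set side by side, the classical chains and the DM and DO chains parted between the groups. The mean log2 level of the 3 classical chains, relative to the mean over all arrays, was 1.22, 1.42 and 1.25 in DKO cells, against -1.33, -0.73 and -1.83 in WT cells. The mean level of H2-DMa, H2-DMb2, H2-Oa and H2-Ob was 0.00, 0.39 and -0.20 in DKO cells, against 0.07, -0.20 and -0.07 in WT cells. The classical level thus separated the groups, and the joint level of the DM and DO genes did not. Their difference averaged 1.23 ± 0.21 in DKO cells and -1.23 ± 0.63 in WT cells (SD, n = 3 each), a gap of 2.46, and 2.81 without WT replicate 2. The DM and DO mean hides a split, as the DM chains were at 0.74 and 0.86, H2-Oa at 0.18 and H2-Ob at -1.26. The overlap of the joint level therefore does not carry over to the DM chains alone, for which no joint level was computed.

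Arrays of a group also ranked differently by gene. Among WT arrays, replicate 2 was above its group mean by 1.05 for H2-Aa, 0.68 for H2-Eb1 and 1.61 for Cd74 on the log2 scale. It was below that mean by little for H2-Ab1 and H2-Ob, at -0.02 for each, and clearly for H2-Oa, at -0.63. Among DKO arrays the lowest values of the classical chains and Cd74 relative to their group mean were -0.37 for H2-Ab1 and -0.39 for Cd74, both on replicate 1.

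Markers of cells that usually bear class II had list medians between -0.93 and 0.13, while the classical chains were at 2.25 to 2.96. The B lineage list, 14 fitted of 15 measured genes, was lower in all 14, and 1 fell: Cd72, a B cell receptor partner, at -2.32 ± 0.38 (limma, adjusted p = 0.0117). That call ended without DKO replicate 3 or WT replicate 1 and without an intensity trend, with adjusted p up to 0.0727. Its summed signal was 2093 to 2930 in DKO cells, against 3629 to 12997 in WT cells, with WT replicate 2 the highest. On that array H2-Aa and Cd74 were the highest of the WT arrays, while H2-Ob, at 1281, was level with the other WT arrays. Pax5, which defines B cells, was too dim to be fitted, at 5.7 to 61.7 in DKO cells, against 3.6 to 23.3 in WT cells.

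Conventional dendritic cell markers had a median of 0.13 in 10 fitted of 13 measured genes, 5 of them at an unadjusted p under 0.05, and the 1 call was a fall of the receptor gene Flt3, at -1.54 ± 0.25 (limma, adjusted p = 0.0108), which ended without DKO replicate 1 or 3 or WT replicate 1 and without an intensity trend (adjusted p up to 0.0660). Every DKO array was above every WT array for 4 genes that did not pass: Itgax, the CD11c gene, at 1.69 ± 0.52, Ffar2 at 1.32 ± 0.30, Clec10a at 1.25 ± 0.40 and Cst3 at 0.67 ± 0.19 (limma, adjusted p = 0.157, 0.0542, 0.166 and 0.128). Ccr7 did not pass either and went the other way, at -1.09 ± 0.51 (limma, adjusted p = 0.361). It read 10.2 to 56.0 in DKO cells, against 81.9 to 91.8 in WT cells. Zbtb46 was at 0.24 ± 0.44, and its groups overlapped. These genes were named after their values were seen. The mean log2 level of the list, relative to all arrays, was 0.07, 0.03 and 0.26 in DKO cells, against -0.11, -0.20 and -0.04 in WT cells, so the groups did not overlap. Their summed signal was 22750 to 31469 in DKO cells, against 22643 to 33310 in WT cells. Most of it on every array was Cd24a, at 14134 to 20209 in DKO cells, against 13730 to 26221 in WT cells. The defining genes Xcr1, Batf3 and Cd209a were too dim to be fitted. The plasmacytoid list had a median of 0.13 with 0 of 11 called by limma and 2 at an unadjusted p under 0.05. Its summed signal was 5087 to 6661 in DKO cells, against 6292 to 7518 in WT cells. Tcf4 was its largest part, at 2835 to 3510 in DKO cells, against 3443 to 4989 in WT cells. Bst2 and Siglech, its genes with the smallest p, were at 0.96 ± 0.33 and 1.77 ± 0.69 (adjusted p = 0.211 and 0.265).

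In the monocyte and macrophage list 1 of 8 fitted genes rose, the chemokine receptor gene Ccr2, at 2.32 ± 0.26 (limma, adjusted p = 0.00152). The call stood under every alternative run. The list had a median of 0.09 and a summed signal of 11124 to 14596 in DKO cells, against 8682 to 26718 in WT cells, where WT replicate 2 was the highest. Lyz2 was the largest part of that sum, at 5311 to 5970 in DKO cells, against 6312 to 20633 in WT cells. Adgre1, the F4/80 gene, was at 1.41 ± 0.46 and did not pass (adjusted p = 0.171), although its groups did not overlap. Of the 14 measured genes 6 were too dim to be fitted: C1qa, C1qc, Cd14, Fcgr1, Cx3cr1 and Marco. Marco, a scavenger receptor gene, read 98.2, 55.2 and 60.9 in DKO cells, against 37, 14.3 and 17 in WT cells. Fcgr1 went the other way, at 18.3 to 43.2 in DKO cells, against 53.9 to 67.1 in WT cells. Of the 8 fitted genes 4 had a positive difference and 4 a negative one. Among the negative ones, Cd68 and C1qb were at -0.82 ± 0.48 and -0.80 ± 0.69, and their groups overlapped.

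Lists of 2 groups of cells that are not usual bearers had higher medians, 2.40 for T and NK cells and 3.07 for mast cells, basophils and eosinophils. The T and NK list rose in 7 of 12 fitted genes and fell in 0, with a summed signal of 10374 to 15227 in DKO cells, against 1100 to 1843 in WT cells. Its calls with the smallest p were the granzyme genes Gzma and Gzmb, at 4.06 ± 0.41 and 4.72 ± 0.49, the chemokine gene Ccl5, at 2.95 ± 0.41, and the surface antigen gene Thy1, at 2.36 ± 0.33 (limma, adjusted p = 0.000873, 0.000873, 0.00439 and 0.00545). The Ccl5 call ended without an intensity trend (adjusted p = 0.0568). The mast cell, basophil and eosinophil list rose in 8 of 11 and fell in 0, with a summed signal of 29333 to 36354 in DKO cells, against 1731 to 13163 in WT cells. Its calls with the smallest p were the IgE receptor gene Ms4a2, at 5.38 ± 0.33, the eosinophil receptor gene Siglecf, at 3.34 ± 0.25, and the protease genes Mcpt8 and Cpa3, at 3.88 ± 0.41 and 3.65 ± 0.40 (limma, adjusted p = 1.59e-05, 6.86e-05, 0.00101 and 0.00103). The part of any of these cells in the class II difference was not tested.

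The remaining lists held cells that the sort could also contain. Of 7 fitted plasma cell genes 2 rose, Igha and Jchain, both parts of secreted antibody, at 4.99 ± 0.40 and 4.13 ± 0.38 (limma, adjusted p = 0.000115 and 0.000327). Their list had a summed signal of 19870 to 47521 in DKO cells, against 3399 to 4614 in WT cells, and these 2 genes made up most of it in DKO cells. The other plasma cell genes did not pass: Sdc1, the CD138 gene, was at -0.74 ± 0.34, Mzb1 at -0.07 ± 0.41 and Irf4 at 0.05 ± 0.56, while Prdm1 and Xbp1 were at 1.10 ± 0.45 and 0.88 ± 0.24. Group 2 innate lymphoid cells, which can bear class II, had 0 of 8 genes called by limma and 2 at an unadjusted p under 0.05, with a summed signal of 3707 to 4650 in DKO cells, against 2758 to 2999 in WT cells. Klrg1 and Il2ra had the smallest p, at 1.69 ± 0.42 and 1.13 ± 0.36 (adjusted p = 0.0789 and 0.173), and Klrg1 passed without WT replicate 2 (adjusted p = 0.0173). The defining genes Gata3 and Rora were at 0.46 ± 0.63 and -0.21 ± 0.30, and for both the groups overlapped. Il13 and Il5 were too dim to be fitted. Il13 read 74.1 to 88.8 in DKO cells, against 7.2 to 23.0 in WT cells, and Il5 overlapped.

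Neutrophil genes gave 0 calls of 10 by limma and 0 at an unadjusted p under 0.05, with a median of -0.09. Cxcr2 and Itgam had the smallest p, at -0.84 ± 0.48 and 0.61 ± 0.49 (adjusted p = 0.468 and 0.620). Of 7 erythroid genes 1 fell, Car2, a carbonic anhydrase, at -1.03 ± 0.12 (limma, adjusted p = 0.00207), and this call ended without an intensity trend (adjusted p = 0.131). In that list 4 genes had an unadjusted p under 0.05, and 5 differences were negative and 2 positive. Car1 was at 2.48 ± 0.73 and Slc4a1 at -2.25 ± 0.66, and neither passed (limma, adjusted p = 0.135 and 0.138). Of the stem cell genes, the 4 calls with the smallest p were Mecom at -1.66 ± 0.22, Mllt3 at -1.29 ± 0.18, Hlf at -1.33 ± 0.21 and Procr at -1.66 ± 0.27 (limma, adjusted p = 0.00389, 0.00458, 0.00936 and 0.0111). These 4 calls ended without an intensity trend (adjusted p up to 0.131), those of Hlf and Procr also without WT replicate 1, and that of Mecom with the mean over its probe sets (adjusted p = 0.191). Slamf1 and Gata2, stem cell genes that did not pass, were at 0.37 ± 0.38 and 0.18 ± 0.27. Kit and Cd34 did not pass either, at -0.60 ± 0.19 and -0.78 ± 0.18 (limma, adjusted p = 0.166 and 0.0672). For both, every DKO array was below every WT array.

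**Figure D3:**
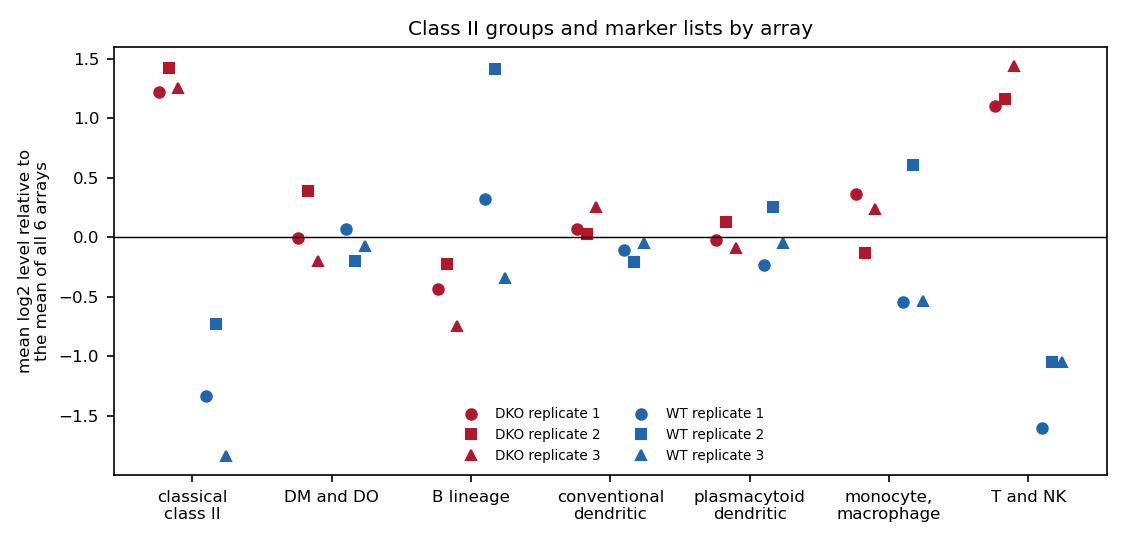
Mean log2 level on each array, relative to the mean of all 6, of the 3 classical chains, of the 4 DM and DO genes and of 5 marker lists, with DKO arrays in red left of WT arrays in blue and a symbol for each replicate number. The classical chains, the T and NK list and, by a small margin, the conventional dendritic list have all DKO arrays above all WT arrays, and the other groups overlap.

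Other genes of class II regulation were tested from a list of RFX, NF-Y and interferon-gamma pathway genes. Of 19 fitted, 2 rose and 0 fell (7 at an unadjusted p under 0.05), and the median was 0.05. Interferon-gamma itself, Ifng, the main inducer of Ciita in cells that do not bear class II by default, read 259.0, 424.2 and 463.2 in DKO cells, against 6.5, 10.0 and 79.1 in WT cells. All DKO arrays were above all WT arrays (3.34 ± 0.57, limma adjusted p = 0.0161). Irf8, a factor of dendritic cells and monocytes, read 1865, 2902 and 2094 in DKO cells, against 293.0, 945.2 and 507.7 in WT cells, and WT replicate 2 was again the highest of its group. It rose by 2.07 ± 0.37 (limma adjusted p = 0.0194). Both calls ended when WT replicate 1 or any 1 of the DKO arrays was left out and without an intensity trend, with adjusted p up to 0.0928 for Ifng and 0.123 for Irf8. Rfx5, the RFX subunit that binds the X box, was at -0.87 ± 0.25 and did not pass (adjusted p = 0.124), and it was named after its values were seen.

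Genes that prepare peptides for class II gave no call. Of 12 fitted genes of antigen processing and turnover, 0 were called by limma and 4 had an unadjusted p under 0.05, with a median of 0.21. Ifi30, a reductase that opens disulfide bonds of antigens, was at 2.09 ± 0.49 (adjusted p = 0.0653), with 1905, 1779 and 2419 in DKO cells, against 380.0, 1240 and 204.1 in WT cells. Cathepsin H, Ctsh, was at 1.37 ± 0.34 (adjusted p = 0.0788), with 2145, 1706 and 2194 in DKO cells, against 572.1, 1428 and 547.2 in WT cells. For both the groups did not overlap, and WT replicate 2 lay nearest to the DKO arrays. Both passed the threshold when that array was left out (limma, adjusted p = 0.000815 for Ifi30 and 0.00291 for Ctsh) and with array quality weights, and Ctsh also with the mean over its probe sets. With another array left out, adjusted p rose to 0.216 for Ifi30 and 0.249 for Ctsh.

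Co-stimulation genes, which T cells need beside the peptide, gave 0 calls of 8 (1 at an unadjusted p under 0.05). The 2 with the smallest p were Cd40, a receptor for T cell help, at 1.00 ± 0.35 (adjusted p = 0.211), and Icosl at 0.99 ± 0.46 (adjusted p = 0.360). Of 14 class I presentation genes 13 had a positive difference, the median was 0.43, and 1 rose. This was Nlrc5, the class I counterpart of Ciita, at 3452, 3203 and 4140 in DKO cells, against 1127, 1999 and 1331 in WT cells (1.30 ± 0.24, limma adjusted p = 0.0208). The Nlrc5 call ended when any 1 array other than WT replicate 2 was left out and without an intensity trend, with adjusted p up to 0.143.

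**Figure D4:**
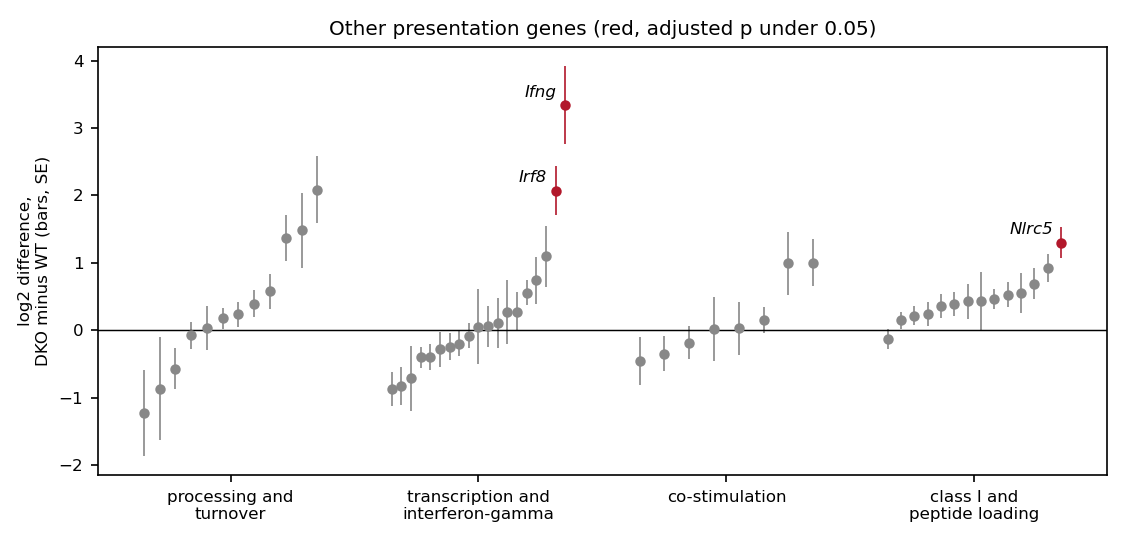
Log2 difference, DKO minus WT, with SE as bars, of 53 fitted genes in 4 lists of antigen presentation, each list sorted from low to high. The 3 genes with an adjusted p under 0.05 are red and named: Ifng at 3.34, Irf8 at 2.07 and Nlrc5 at 1.30.

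The classical chains, DM and DO genes lie together on chromosome 17, and their neighbours gave no call. Of 28 neighbouring genes between them or within 250 kb, by the RefSeq gene order of GRCm38.p6, 24 were fitted, and limma called 0 (2 at an unadjusted p under 0.05). Their median was -0.01 and their range -1.06 to 0.57. BC051142 and the immunoproteasome gene Psmb8 had the smallest p, at -1.06 ± 0.37 and 0.52 ± 0.19 (adjusted p = 0.219 and 0.222). H2-Ob lies next to H2-Ab1 in this order, with Tap2, a peptide transporter gene, on its other side at 0.44 ± 0.43. Of the other class II genes of the region, H2-Eb2 was too dim to be fitted and read 35.1 to 62.7 in DKO cells, against 26.1 to 75.7 in WT cells.

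**Figure D5:**
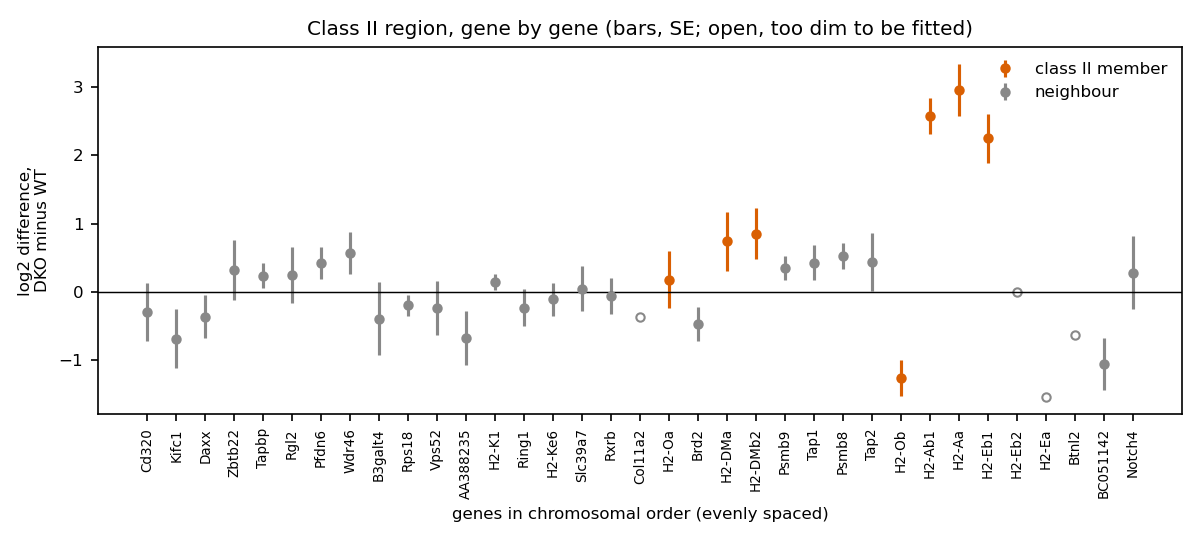
Log2 difference, DKO minus WT, with SE as bars, of the class II members (orange) and their neighbours (grey) in chromosomal order with even spacing, open where too dim to be fitted. H2-Ab1, H2-Aa and H2-Eb1 stand at 2.25 to 2.96 beside H2-Ob at -1.26, and the fitted neighbours lie between -1.06 and 0.57.

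The genes whose levels ran most like the mean of the classical chains were sought among 11520 other fitted genes by Pearson's r over the 6 arrays. Since the groups stand apart, r mostly repeats the difference between them, and it is given with no test. Gata1, an erythroid and mast cell factor, had r = 0.996, Ly86, a partner of a Toll-like receptor on B cells and myeloid cells, 0.994, Cotl1, an actin-binding protein, 0.993, and Gm11827 also 0.993. Adpgk, a glucokinase that uses ADP, had 0.991, and Mthfd2, a mitochondrial folate enzyme, 0.990. Ly86 read 927.1, 783.9 and 822.1 in DKO cells, against 187.6, 279.3 and 130.2 in WT cells. Its WT arrays had the same order as for H2-Aa and H2-Eb1, which the choice by r favours.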

How the data were processed

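RNA of sorted bone marrow cells was measured on 6 Affymetrix arrays, 3 DKO and 3 WT. The deposited table holds linear intensity values, made by the authors with MAS5 per the submitters' processing notes, and the trimmed mean of each array, 2% left out at each end, was 500. Of 45101 probe sets 64 controls were left out, and 34945 have 1 symbol in the platform annotation, 932 several and 9160 none there.

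From these, log2(signal + 16) was computed. Probe sets in the lowest 40% by mean (below a signal near 53.2) were dropped, which left 27023 for limma 3.58.1 in R 4.3.3 (lmFit and trended eBayes, two-sided, no block), adjusted by Benjamini-Hochberg over all of them. The fit was tested on simulated arrays. A gene is represented by its brightest probe set with its symbol alone. Named were all members, the 6 genes most like the classical chains and, per list, up to 4 called genes with the smallest p, or where none was called the 2 with the smallest p; defining markers are named with their levels. The members and lists were chosen with earlier results of these data known.

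Alternatives were offsets of 1 and 64, no filter or one of 60%, quantile normalization, median centring, no trend, array quality weights, blocking on replicate number, leaving out each array, a threshold of 0.10 and the mean over the probe sets of a gene. The number of arrays limits the precision. Plots were made in matplotlib 3.10.9 (Python 3.11.15).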

Additional observations from a re-analysis of the deposited data

How the results depend on the processing

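The log2 differences of the 9 members at their brightest probe sets kept their sign under every alternative, except H2-Oa (-0.13 without WT replicate 2, -0.08 without DKO replicate 2) and Ciita (-0.17 without WT replicate 2, -0.02 with array quality weights), neither of them called. The gap between classical and DM and DO chains was 2.20 to 2.81 with an array left out and 1.94 with the mean over the probe sets of each gene. Of 16 fitted member probe sets 6 were called, and of 9 genes 5. With an array left out these counts were 2 to 6 and 2 to 4. Without an intensity trend they were 1 and 1, that of H2-Ab1, and 3 genes were called with an offset of 1 and with no filter. The 3 calls among other presentation genes were 0 to 6 with an array left out, 0 without an intensity trend (13 at an unadjusted p under 0.05), 6 with array quality weights or a threshold of 0.10, and 5 with the mean over probe sets. All fitted probe sets gave 370 calls, against 208 with no filter, 88 without a trend, 563 with array quality weights, 738 at a threshold of 0.10 and 104 to 469 with an array left out. Deviations of samples with the same replicate number had correlations of 0.14, -0.03 and 0.05, and those with different numbers had -0.13 to 0.06. With 3 arrays per group these values cannot decide whether the numbers pair the samples. With a replicate block 5 member probe sets, 4 member genes and 3 other presentation genes were called, and the gap of 2.46 was the same. Median centring put the median of all fitted probe sets at 0.06 in place of -0.05, and printed differences keep the authors' scaling. The cause of these shifts was not tested. Signals near the filter limit, as for Ciita, bound what can be said of dim genes.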
